A study of Homo sapiens with 4 samples.

Results

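The genes examined were 9 redox genes: GCLC, GCLM, GSS, GSR, NQO1, TXN, TXNRD1, SRXN1 and PRDX1. They were chosen by name as genes of glutathione, of thioredoxin and of the NRF2 response, and all 9 were found among the 16490 genes of the MV4-11 expression table, where they hold 22 RefSeq transcripts. MV4-11 is a human acute myeloid leukemia (AML) cell line, and the comparison asks what changes in it when CEBPG, a leucine-zipper transcription factor of the CCAAT enhancer binding protein family, is knocked down. Controls carried the hairpin sh-NC (2 libraries) and knockdown cells carried sh-CEBPG#3, a single hairpin against CEBPG (2 libraries). The CEBPG hairpin was delivered with the lentiviral pLKO.1-puro vector and infected cells were selected with puromycin, while the vector of sh-NC is not given in the sources used here.

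Glutathione is a small thiol made in a pair of steps, by glutamate-cysteine ligase (subunits GCLC and GCLM) and then by glutathione synthetase (GSS), and it is returned to its reduced form by glutathione reductase (GSR). Thioredoxin (TXN) reduces proteins directly, is itself reduced by thioredoxin reductase (TXNRD1), and serves peroxiredoxins such as PRDX1, which break down peroxides and are repaired by sulfiredoxin (SRXN1) when over-oxidised. NRF2, encoded by NFE2L2, is held low by KEAP1 and, once released, raises many of these genes and the quinone reductase NQO1 through antioxidant response elements (AREs).

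The expression values were FPKM (fragments scaled to exon length and to the mapped reads), summed over the transcripts of a gene. Differences were tested as log2(FPKM + 1) with limma over the 12142 genes that averaged at least 0.5 FPKM, and a gene was said to rise or fall at a Benjamini-Hochberg adjusted p under 0.05. Fold changes on this scale understate those of low genes. FPKM totals were 364353 to 389766 per library, the read depth is unknown, and Pearson's r across genes was 0.993 and 0.994 within the groups and 0.962 to 0.964 between them. CEBPG itself had 30.4 and 33.6 FPKM under sh-NC and 19.2 and 17.1 FPKM under sh-CEBPG#3, so 56.8% of the control level remained (log2 fold change -0.78 ± 0.09 (SE), adjusted p = 8.88e-05 from limma). Whether a group was infected once or separately for each library is not given in the sources used here, so the p-values measure the spread between these libraries, which may be technical. With 1 CEBPG hairpin, an effect of the hairpin and an effect of losing CEBPG cannot be told apart. In bulk RNA, a change in the share of cells expressing a gene and a change in RNA per cell cannot be told apart either.

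Upon CEBPG knockdown, 7 of the 9 genes rose, none fell, and GCLC and GSS did not pass the test. The background was high, as 42.2% of all genes tested passed in either direction, 18.5% as higher and 23.8% as lower. NQO1 and SRXN1 rose past a log2 fold change of 1, which 2.33% of all genes did. The median log2 fold change was 0.36 over the 9 genes and -0.04 over all genes tested. The groups did not overlap for any of the 9, with 8 genes higher in both knockdown libraries (31.5% of all genes) and GCLC lower in both (40.2% of all genes). The 9 genes together held 581 and 612 FPKM under sh-NC and 931 and 885 FPKM under sh-CEBPG#3.

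**Figure D1:**
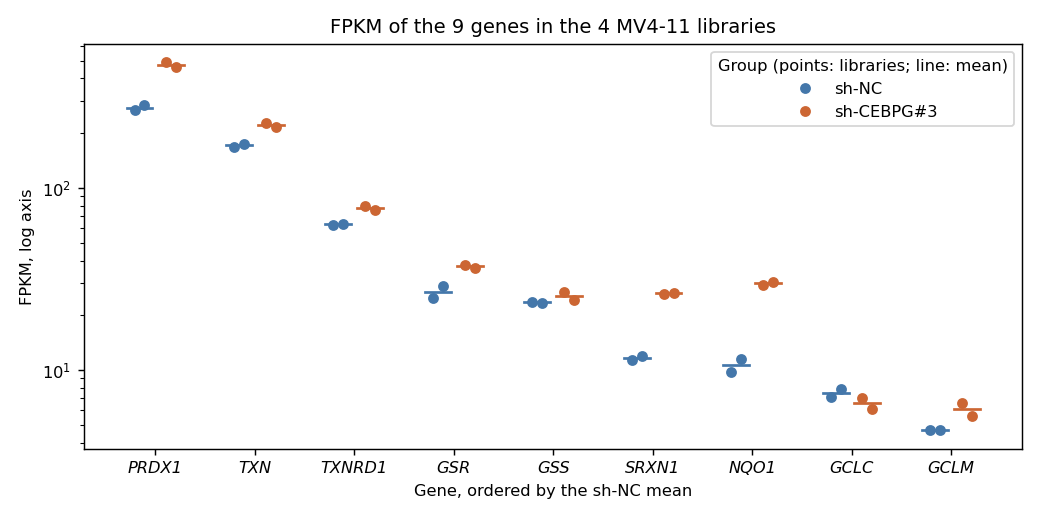
FPKM on a log axis for each of the 9 genes, ordered by the sh-NC mean, with points for the 2 libraries of each group and short lines for the group means. The sh-CEBPG#3 points lie above the sh-NC points for every gene except GCLC, and the gap is widest for NQO1 (10.6 against 29.9 FPKM on average) and SRXN1 (11.7 against 26.4 FPKM).

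In sh-NC cells the levels, which FPKM gives per length, ran from PRDX1 (276 FPKM on average) through TXN (172), TXNRD1 (63.4), GSR (26.9), GSS (23.6), SRXN1 (11.7), NQO1 (10.6) and GCLC (7.47) to GCLM (4.67). In this order the values of SRXN1 and NQO1 overlapped between libraries, while all other neighbours were apart. In sh-CEBPG#3 cells NQO1 and SRXN1 stood above GSS in mean level, at 29.9, 26.4 and 25.5 FPKM. There SRXN1 overlapped with GSS, and GCLC (6.57 FPKM) overlapped with GCLM (6.11 FPKM). The peroxidase and its electron donor were thus the most abundant transcripts of the 9 in both groups, and both subunits of the ligase the least.

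The promoters of these genes were searched for AREs, the element through which NRF2 acts. The ARE core TGACNNNGC was searched on both strands of the 1000 bases before the canonical transcription start of protein-coding genes (GENCODE 44, GRCh38). It was found for 7 of the 9 genes (GCLC, GCLM, GSR, NQO1, PRDX1, TXN and TXNRD1). It was in 34.2% of the 10710 windows of protein-coding genes tested. The 9 genes were chosen partly as genes of the NRF2 response, which acts through AREs. Their share of AREs may therefore reflect that choice, and it is a description and not a test. Another motif, TGANTCAGC, shares its first letters with the AP-1 site and was chosen after the expression values had been seen. It leaves open a letter that the core fixes as C, so it is a different pattern and not a narrower core. It was found for NQO1, PRDX1 and SRXN1, the 3 genes with the largest fold changes. It was in 2.76% of the same 10710 windows. Because of the late choice, this is a description and not a test. The match in NQO1 is counted by both motifs, since its letters fit each. The following stretches show the matches, 5′ to 3′ on the strand that reads the motif, with the motif in capitals.
NQO1, chr16:69726997-69727025, minus strand, 455 to 447 bases before the start: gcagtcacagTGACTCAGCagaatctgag
SRXN1, chr20:653454-653482, minus strand, 272 to 264 bases before the start: aaactcacccTGAGTCAGCccgcccgggc
PRDX1, chr1:45522455-45522483, minus strand, 589 to 581 bases before the start: gtcgtgtaacTGAATCAGCctcccaagat
PRDX1, chr1:45522007-45522035, plus strand, 141 to 133 bases before the start: cccgccggaaTGACTCGGCgctttccctc
TXNRD1, chr12:104215670-104215698, plus strand, 99 to 91 bases before the start: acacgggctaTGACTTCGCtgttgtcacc
TXN, chr9:110257070-110257098, plus strand, 581 to 573 bases before the start: tgctccagctTGACACAGCggtttagtgc
GCLM, chr1:93909446-93909474, plus strand, 34 to 26 bases before the start: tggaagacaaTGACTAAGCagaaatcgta
GCLC, chr6:53545953-53545981, plus strand, 870 to 862 bases before the start: aaatatgtgtTGACAGAGCaatgacctgt

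These matches are letters in a window, and no binding was measured at them. For PRDX1 the canonical start lies inside the RefSeq span of the gene, which runs to 45522890. Both PRDX1 matches therefore lie within that span and not before its outermost start. GCLC, which did not rise, holds the ARE core as well. SRXN1, which rose past a log2 fold change of 1, holds TGANTCAGC and no match to the core. The element bound by CEBP and ATF partners was searched as TGATGNAA and was in 9.6% of the windows of protein-coding genes tested. Among the 9, the element was found in the window of GSS only. It lies at chr20:34956373-34956400 on the minus strand, 584 to 577 bases before the start, and is shown because GSS is the gene of the 9 that holds it: ccccagatccTGATGTAAacggtacaag. In the shorter RefSeq promoters, which run from 250 bases before the start to 50 after it, 6 of the 9 genes have 7 entries. The ARE core is in 3 of them, those of GCLM and both of TXNRD1, and in 13.3% of all 35116 promoters, while the other motifs are in none of the 7.

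**Figure D2:**
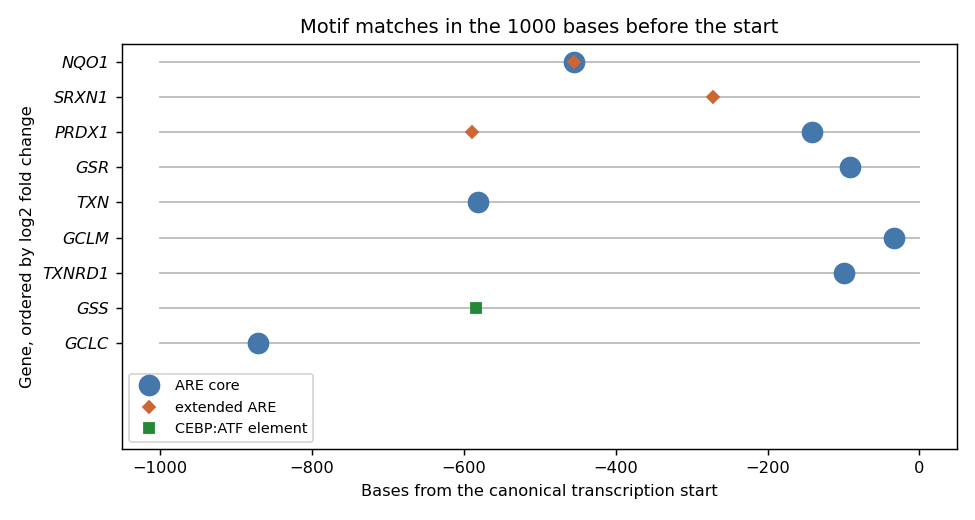
Position of each motif match in the 1000 bases before the canonical transcription start, in bases from the start, for the 9 genes ordered by log2 fold change from top to bottom. Circles are the ARE core TGACNNNGC, diamonds TGANTCAGC and the square TGATGNAA. The diamonds lie in the top 3 genes, at 455, 272 and 589 bases before the start. Their motif was chosen after the expression values had been seen.

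NQO1, a quinone reductase that uses NADPH or NADH and a classical readout of NRF2, had the largest change of the 9. It had 9.80 and 11.5 FPKM under sh-NC and 29.2 and 30.6 FPKM under sh-CEBPG#3. Both knockdown libraries lay far above both controls, and the libraries of each group lay close together. The mean rose from 10.6 ± 1.20 to 29.9 ± 0.967 FPKM (SD, n = 2), which is 2.81-fold (log2 fold change 1.41 ± 0.09 (SE), adjusted p = 2.43e-06 from limma), and NQO1 ranked 130 of 12142 genes by log2 fold change. The gene lies on the minus strand of chromosome 16 from 69709401 to 69726560 (RefSeq, GRCh38.p14). Of its 4 transcripts, NM_000903 carried 87.8% of the FPKM of the 4 libraries and went from a mean of 9.09 to 26.5 FPKM. The next, NM_001025434, had 1.39 and 0.604 FPKM in sh-NC cells and 2.49 and 2.77 FPKM in sh-CEBPG#3 cells, so it too was higher in both knockdown libraries.

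Among the 6070 other genes averaging no less than the median gene (7.51 FPKM), the patterns closest to NQO1 over the 4 libraries were those of TOR1B, COL9A2 and SDCBP. The Euclidean distances of their centred log2(FPKM + 1) values from those of NQO1 were 0.105, 0.122 and 0.126. With 4 libraries in 2 groups, this likeness is little more than a like fold change, as their log2 fold changes were 1.40, 1.44 and 1.34.

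The genes SRXN1, PRDX1, TXN and TXNRD1 of the thioredoxin and peroxiredoxin system all rose, by unequal amounts. SRXN1, the sulfiredoxin that restores over-oxidised peroxiredoxins (chromosome 20, minus strand, 646615 to 653200), had 11.4 and 12.0 FPKM under sh-NC and 26.2 and 26.6 FPKM under sh-CEBPG#3, all in its 1 transcript, NM_080725. Both groups were tight and well apart. SRXN1 rose 2.26-fold, from 11.7 ± 0.396 to 26.4 ± 0.298 FPKM (SD, n = 2), with a log2 fold change of 1.11 ± 0.08 (SE, adjusted p = 4.42e-06 from limma).

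PRDX1, the cytosolic peroxiredoxin that SRXN1 repairs (chromosome 1, minus strand, 45511051 to 45522890), had 268 and 285 FPKM under sh-NC and 490 and 464 FPKM under sh-CEBPG#3. The lowest knockdown library stood well above the highest control. The log2 fold change was 0.79 ± 0.07 (SE, adjusted p = 2.04e-05 from limma), a 1.73-fold rise from 276 ± 12.5 to 477 ± 18.3 FPKM (SD, n = 2). In FPKM this was the largest gain of the 9. Of 4 listed transcripts, NM_181697 held 98.5% of the FPKM of the gene. MMACHC, which overlaps PRDX1 on the other strand, had 2.64 to 3.27 FPKM in all libraries, against at least 268 FPKM for PRDX1.

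TXN, the thioredoxin itself (chromosome 9, minus strand, 110243810 to 110256507), had 169 and 175 FPKM in sh-NC cells and 227 and 216 FPKM in sh-CEBPG#3 cells. The groups did not overlap, and the mean rose 1.29-fold (log2 fold change 0.36 ± 0.07 (SE), adjusted p = 0.00211 from limma). TXN has 7 annotated pseudogenes and PRDX1 has 1, none of them in the expression table, and how reads shared with such copies were counted is not given in the sources used here.

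TXNRD1, the selenoprotein that reduces thioredoxin at the expense of NADPH (chromosome 12, plus strand, 104215779 to 104350307), had 63.0 and 63.8 FPKM in sh-NC cells and 80.0 and 75.7 FPKM in sh-CEBPG#3 cells. The gene as a whole was higher in both knockdown libraries, 1.23-fold (log2 fold change 0.29 ± 0.07 (SE), adjusted p = 0.00792 from limma). Its FPKM was spread over 6 transcripts. NM_182729 held 75.5% of it and went from 51.7 and 46.0 FPKM to 58.8 and 56.9 FPKM, while NM_003330 held 16.7% and went from 6.98 and 11.5 FPKM to 14.4 and 14.4 FPKM. When its most abundant transcript stood for the gene, TXNRD1 no longer passed (log2 fold change 0.24, adjusted p = 0.0913 from limma).

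Of the 4 glutathione genes, GSR and GCLM rose and GCLC and GSS did not pass. GSR, the NADPH-dependent reductase of glutathione (chromosome 8, minus strand, 30678066 to 30727846), had 24.8 and 29.0 FPKM under sh-NC and 37.8 and 36.4 FPKM under sh-CEBPG#3. The 2 controls differed more than the 2 knockdown libraries, and the groups were apart. GSR rose 1.38-fold (log2 fold change 0.45 ± 0.09 (SE), adjusted p = 0.00241 from limma).

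GCLM, the modifier subunit of glutamate-cysteine ligase (chromosome 1, minus strand, 93885199 to 93909430), had 4.68 and 4.67 FPKM in sh-NC cells and 6.62 and 5.61 FPKM in sh-CEBPG#3 cells. The knockdown libraries were both higher but differed from each other. GCLM passed narrowly (1.31-fold, log2 fold change 0.32 ± 0.10 (SE), adjusted p = 0.0276 from limma). Its main transcript, NM_002061, had 4.51 and 4.54 FPKM in sh-NC cells and 6.39 and 4.35 FPKM in sh-CEBPG#3 cells, so its groups overlapped. The second, NM_001308253, went from 0.169 and 0.129 FPKM to 0.227 and 1.26 FPKM. With the main transcript alone, GCLM had a log2 fold change of 0.19 and an adjusted p = 0.480 from limma.

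GCLC, the catalytic subunit that sets the pace of glutathione synthesis (chromosome 6, minus strand, 53497341 to 53545101), had 7.09 and 7.85 FPKM in sh-NC cells and 7.02 and 6.12 FPKM in sh-CEBPG#3 cells. The nearest libraries of the groups almost touched. The log2 fold change was -0.16 (95% interval -0.38 to 0.06, adjusted p = 0.213 from limma). GSS, which adds glycine in the last step (chromosome 20, minus strand, 34928432 to 34956027), had 23.7 and 23.5 FPKM in sh-NC cells and 26.8 and 24.2 FPKM in sh-CEBPG#3 cells. Its log2 fold change was 0.10 (95% interval -0.08 to 0.28, adjusted p = 0.327 from limma). These intervals exclude for both genes a change of the size of NQO1, SRXN1 or PRDX1, whose lowest bound was 0.63. Their upper bounds, 0.06 and 0.28, also lie below the log2 fold changes of GSR, TXN, GCLM and TXNRD1, of which the lowest was 0.29. The intervals of those genes overlap with that of GSS, though. A smaller change, within the interval of each gene, is not excluded.

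**Figure D3:**
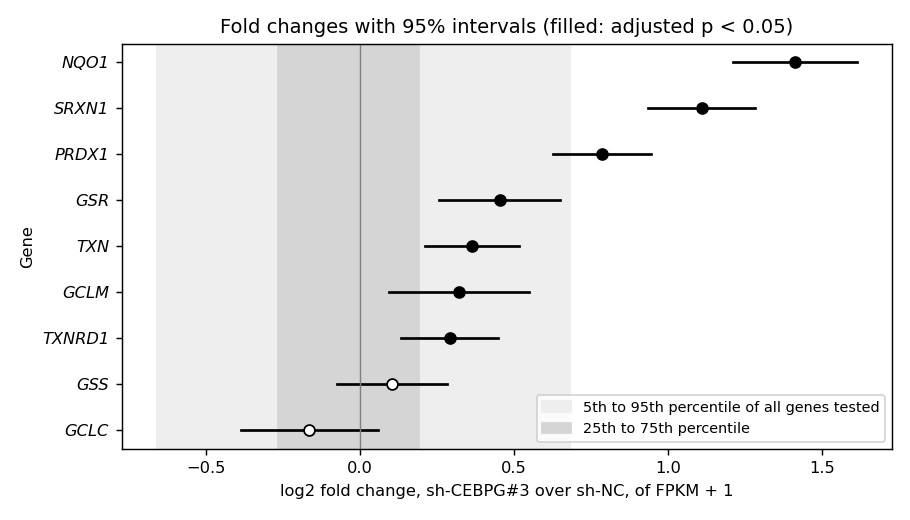
Log2 fold change of FPKM + 1 in sh-CEBPG#3 over sh-NC cells for the 9 genes, with 95% intervals from limma, filled points for an adjusted p under 0.05, and grey bands for the 5th to 95th and 25th to 75th percentiles of all genes tested. NQO1 (1.41), SRXN1 (1.11) and PRDX1 (0.79) lie above the 95th percentile of 0.68, and GCLC (-0.16) and GSS (0.10) lie within the inner band.

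The fold changes of GCLM, TXN and TXNRD1 varied with the knockdown library left out. Without sh-CEBPG#3 replicate 1 their log2 fold changes were 0.22, 0.33 and 0.25, and these genes no longer passed. Without sh-CEBPG#3 replicate 2 the log2 fold changes were 0.43, 0.40 and 0.33. Each of these fits leaves 1 library in the group and has larger SEs (for TXN 0.12, against 0.07 as reported). Whether the calls rested on 1 library therefore cannot be told. GSR, NQO1, SRXN1 and PRDX1 passed in all 12 alternative fits, with log2 fold changes of 0.35 to 0.56, 1.31 to 1.52, 1.08 to 1.17 and 0.72 to 0.83.

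**Figure D4:**
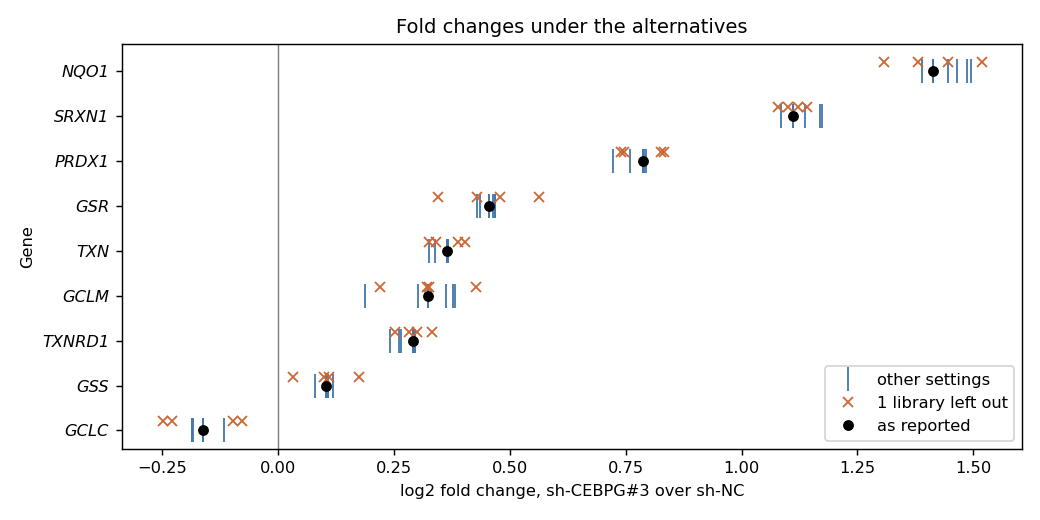
Log2 fold change of each of the 9 genes as reported (black points), with 1 library left out (crosses) and under the other settings (bars), in sh-CEBPG#3 over sh-NC cells. The order of the 3 genes with the largest changes holds in each fit shown, and no gene crosses 0, with GSS nearest at 0.03.

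Around these 9 genes, 143 genes of 7 redox lists were examined, of which 130 were in the table and 124 passed the filter on low values. Of these 124 genes 45 rose, 23 fell and 56 did not pass, with a median log2 fold change of 0.10. Over all genes tested 18.5% rose and 23.8% fell, shares against which this count and those of the single lists are to be read. With the most abundant transcript standing for each gene the number that fell was 15, beside 12.8% of all genes tested in that fit. As reported, 9 of the 124 genes passed a log2 fold change of 1, all higher: HMOX1, FTH1, FTL, GLA, SQSTM1, IDH1, ME1, SOD2 and CAT. Of these, FTL and GLA are members of the list of other NRF2 targets. They are outside the rule for naming single genes and are named here after their values were seen.

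NRF2 and its regulators moved in both directions, with 3 of 16 genes higher, 6 lower and 7 not passing (median log2 fold change -0.13), beside 18.5% higher and 23.8% lower among all genes tested. NFE2L2, the gene of NRF2, had 15.0 and 15.1 FPKM in sh-NC cells and 28.8 and 26.1 FPKM in sh-CEBPG#3 cells, a log2 fold change of 0.82 (adjusted p = 3.78e-05 from limma). SQSTM1, whose product p62 can sequester KEAP1, rose 3.27-fold, from 40.8 to 133 FPKM on average. KEAP1 had 38.4 and 43.0 FPKM in sh-NC cells and 37.5 and 35.4 FPKM in sh-CEBPG#3 cells (log2 fold change -0.15, 95% interval -0.33 to 0.03, adjusted p = 0.159 from limma), and it passed as lower with equal totals, with quantile normalization and without sh-NC replicate 1. NFE2, a relative of NRF2 with a role in platelets and red cells, fell by 0.55 on the log2 scale. MAFK, a small MAF protein with which NRF2 pairs on DNA, fell by 0.49 on the log2 scale.

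Of 20 other NRF2 targets tested, 11 rose and none fell, with a median log2 fold change of 0.36. HMOX1, the enzyme that breaks down heme, had 0.948 and 1.19 FPKM in sh-NC cells and 8.60 and 9.33 FPKM in sh-CEBPG#3 cells, and its mean rose 8.38-fold. FTH1, the heavy chain of ferritin, rose 4.09-fold, from 262 to 1072 FPKM on average. Both are also genes of iron handling, and ferritin has many processed copies with which reads may be shared.

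Of the 17 genes that supply NADPH, 7 rose and 4 fell (median log2 fold change 0.10). IDH1, the cytosolic isocitrate dehydrogenase, rose 2.40-fold, from 44.1 to 106 FPKM, and ME1, the malic enzyme, rose 2.90-fold, from 1.44 to 4.18 FPKM. NNT, the transhydrogenase of mitochondria, fell by 0.60 on the log2 scale, and MTHFD1, a folate enzyme, fell by 0.57.

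The glutathione peroxidases, transferases and glutaredoxins had 8 of 20 genes higher and 3 lower (median log2 fold change 0.16), none past a log2 fold change of 1. The glutaredoxin GLRX and the transferase GSTM4 had log2 fold changes of 0.56 each, the latter a member of a cluster of near-identical genes that makes its value uncertain. GLRX3, a glutaredoxin of iron-sulfur delivery, fell by 0.40 on the log2 scale, and HAGH, a glyoxalase, fell by 0.38. GLRX3 did not pass without sh-CEBPG#3 replicate 2 (adjusted p = 0.0537 from limma), HAGH did not pass without sh-CEBPG#3 replicate 1, with no filter or with its most abundant transcript (adjusted p = 0.0904, 0.0655 and 0.0625), and GLRX did not pass with its most abundant transcript (adjusted p = 0.0577).

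Glutathione supply and turnover had 4 of 21 genes higher and 6 lower (median log2 fold change -0.06). Both shares were near those of all genes tested, 18.5% higher and 23.8% lower. SLC7A11, the cystine importer, had 12.1 and 12.4 FPKM in sh-NC cells and 14.6 and 12.7 FPKM in sh-CEBPG#3 cells (log2 fold change 0.14, 95% interval -0.06 to 0.34, adjusted p = 0.240 from limma). Its partner SLC3A2 had 118 and 128 FPKM against 133 and 126 FPKM, with overlapping groups. LAP3, an aminopeptidase, rose 1.92-fold, and CHAC1, which degrades glutathione, rose 1.24-fold. SLC1A5, the glutamine carrier, fell by 0.88 on the log2 scale, to 53.8% of the control, and GGCT, which works on gamma-glutamyl peptides, fell by 0.72. CHAC1 did not pass without sh-CEBPG#3 replicate 1 (adjusted p = 0.116 from limma) or with its most abundant transcript (adjusted p = 0.0678).

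Of 26 other genes of the thioredoxin and peroxiredoxin system, 10 rose and 3 fell (median log2 fold change 0.09). MSRB1, a methionine sulfoxide reductase, rose 1.76-fold and SESN1, a sestrin, 1.57-fold. PRDX2, the closest relative of PRDX1, went the other way, from 54.4 and 63.5 FPKM in sh-NC cells to 32.4 and 32.4 FPKM in sh-CEBPG#3 cells (log2 fold change -0.84, adjusted p = 4.63e-05 from limma). TXNL4A, a thioredoxin-like protein of the spliceosome, fell by 0.57 on the log2 scale.

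Among the superoxide dismutases, their copper chaperone and catalase, the mitochondrial SOD2 rose 2.26-fold and CAT rose 2.23-fold, while the cytosolic SOD1 fell by 0.35 on the log2 scale. CAT had 37.0 and 36.8 FPKM in sh-NC cells and 83.1 and 81.4 FPKM in sh-CEBPG#3 cells. SOD1 did not pass without sh-CEBPG#3 replicate 2 (adjusted p = 0.0579 from limma).

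**Figure D5:**
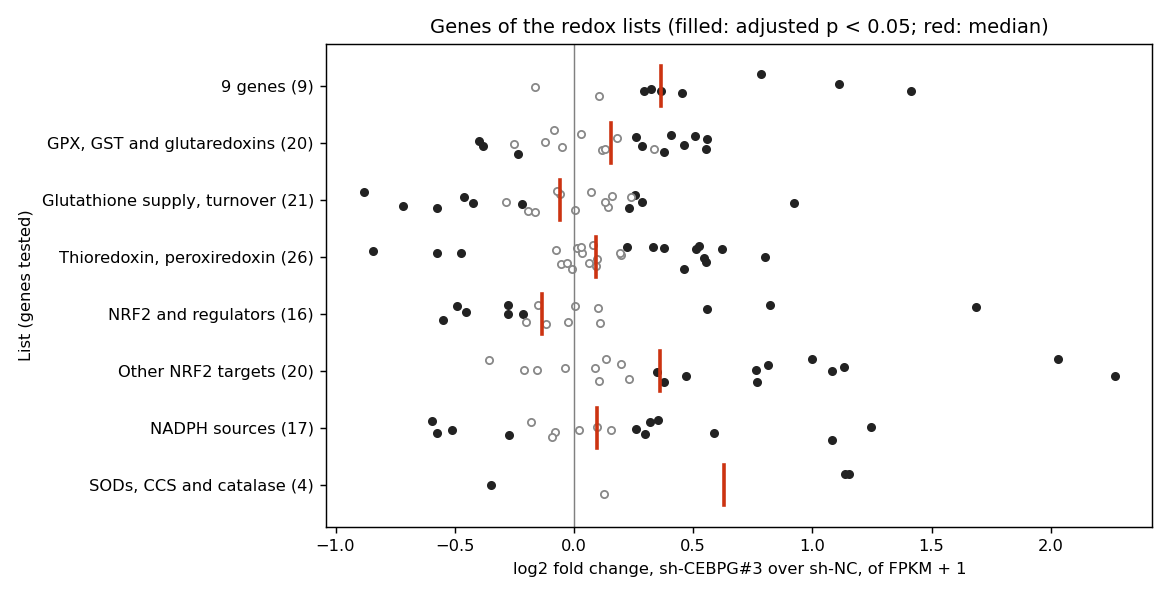
Log2 fold changes of the 9 genes and of the genes tested in 7 redox lists (list size in brackets), with filled points for an adjusted p under 0.05 in limma, open points for the rest and red bars for medians. The other NRF2 targets reach 2.27 (HMOX1) with no called gene below 0, while glutathione supply and turnover runs from -0.88 (SLC1A5) to 0.92 (LAP3).

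Markers of the myeloid lineage differed between the groups in both directions. All 10 markers set for MV4-11 cells were in the table, and their summed level was 848 and 924 FPKM in sh-NC cells and 3490 and 3330 FPKM in sh-CEBPG#3 cells. Nearly all of this gain came from LYZ, which had 567 and 610 FPKM in sh-NC cells and 3126 and 2982 FPKM in sh-CEBPG#3 cells, and CSF1R went from 4.41 and 4.52 FPKM to 8.42 and 8.60 FPKM. MEIS1 went the other way, from 6.65 and 7.34 FPKM to 3.42 and 3.29 FPKM, HOXA9 had 31.5 and 35.7 FPKM against 28.5 and 23.6 FPKM, and FLT3 had at least 67.6 FPKM in sh-NC cells against 66.0 and 62.8 FPKM. MPO had 70.7 and 80.4 FPKM in sh-NC cells and 118 and 115 FPKM in sh-CEBPG#3 cells. CD33 went from 26.8 and 28.3 FPKM to 37.2 and 34.3 FPKM, and CD4 from 66.0 and 74.9 FPKM to 95.3 and 90.7 FPKM. ITGAM had 7.74 and 7.85 FPKM in sh-NC cells and 8.70 and 8.02 FPKM in sh-CEBPG#3 cells. CD14 was at or near 0 in sh-NC cells (0.187 FPKM in 1 library and listed at 0 in the other) and low in sh-CEBPG#3 cells (1.09 and 0.697 FPKM). Of the markers set for B cells, epithelium and fibroblasts, 2 of 3, 2 of 4 and 1 of 3 were listed. These summed to at most 1.52, 16.0 and 0.0781 FPKM per library, and the markers of T cells and red cells are not listed. The epithelial marker KRT8 went from 2.29 and 2.35 FPKM in sh-NC cells to 6.26 and 6.19 FPKM in sh-CEBPG#3 cells. The other, KRT18, had 9.77 and 10.6 FPKM in sh-NC cells and 9.75 and 8.57 FPKM in sh-CEBPG#3 cells. The part of the myeloid markers in the redox changes was not tested.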

How the data were processed

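RNA-seq of MV4-11 cells was analysed, with 2 sh-NC and 2 sh-CEBPG#3 libraries grouped by their titles. After filtering, the authors aligned the reads with HISAT (the submitters' processing notes name HISAT2 2.0.5 and hg38) and deposited FPKM values per RefSeq transcript. The annotation release and the FPKM program are not given in the sources used here. Of 28780 transcripts, 28581 have values, which were summed by symbol to 16490 genes. The authors tested with DESeq2, which takes counts. Here log2(FPKM + 1) values of genes averaging at least 0.5 FPKM were compared with limma 3.58.1 under R 4.3.3, by lmFit and a trended eBayes without a block, with Benjamini-Hochberg adjustment over 12142 genes. An exact permutation test of 2 against 2 libraries cannot go below p = 0.333. The fit was tested on simulated data. Whole reads could not be recovered from low values, since at most 0.974% of transcripts under 0.06 FPKM in a group shared 1 ratio.

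The 9 genes, the redox lists and the markers were chosen with earlier results of these data known. From each list, the 2 largest rises and 2 largest falls among called genes were named, and NFE2L2, KEAP1, SLC7A11 and SLC3A2 always. For the gene with the largest change, the 3 genes of nearest pattern were named. Sequences come from GRCh38 with GENCODE 44, and from RefSeq promoters (GRCh38.p14). All 22 transcripts of the 9 genes matched RefSeq. Alternative fits changed the pseudocount (0.1 or 0.01), the filter (none, or 1 FPKM on average), the scaling (quantiles or equal totals) or the transcripts used (the most abundant), added a replicate block, or left out each library. Some sequence windows are not reported here.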

Additional observations from a re-analysis of the deposited data

How the results depend on the processing

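All 9 genes and CEBPG kept their direction under the 12 alternatives. The number of the 9 genes that rose was 7, and 4 to 7 with a library left out, the lowest without sh-CEBPG#3 replicate 1. It was 5 with the most abundant transcript standing for each gene and 6 with no filter on low values. In those fits 11.1% and 11.3% of all genes tested rose, against 18.5% as reported. Without sh-CEBPG#3 replicate 1 the share of all genes tested that rose was also below 18.5%. The lowest count is to be read beside that smaller share. The number that fell was 0 throughout, and 2 genes passed a log2 fold change of 1 in each fit. GCLM also no longer passed with no filter on low values (adjusted p = 0.0882 in limma), where more genes were tested. With 1 library in a group, that library is assumed to vary like the others. Of the redox lists, 23 genes fell, 15 with the most abundant transcript standing for each gene, and 15 to 27 with a library left out (15 without sh-CEBPG#3 replicate 2); the cause was not tested. The replicate numbers are shared by title only, the deviations of same-numbered libraries correlated at 0.061, and under the replicate block the number of the 9 genes that rose was 7, as without it. SLC3A2, which did not pass, changed sign to -0.02 with quantile normalization. The median log2 fold change of all genes moved between -0.07 and -0.005. Without counts, the precision of low genes such as GCLM and HMOX1 cannot be set by depth.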
